A study of Mus musculus with 8 samples.

Results

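Histone genes were examined in bone-marrow-derived mouse macrophages labelled positive or negative for an Il19-tdT reporter. A gene was taken as a histone gene when its symbol in the deposited count table began with Hist1h, Hist2h, Hist3h, Hist4h, H1f, H2af or H3f and it had at least 1 count over the 8 libraries. This gave 70 of the 17823 genes in the table. Of these, 57 were classed by symbol as replication-dependent genes of the histone clusters and 13 as variant genes. The RefSeq annotation lists Hist3h2bb-ps and Hist1h2al among the 57, and H2afy3 among the 13, as transcribed pseudogenes. They had 11, 22 and 14 counts over the 8 libraries. Hist1h1t lies in a cluster but encodes the linker histone of the testis, and it was placed with the variants. The cells were cultured for 7 days from bone marrow of the C57BL/6 strain in 20 ng of recombinant M-CSF, a macrophage growth factor, and received 1 µg/ml of lipopolysaccharide (LPS), a bacterial outer membrane component that activates them. The 4 tdT-positive and the 4 tdT-negative libraries had this culture, strain and treatment in common, so no library shows untreated cells. The labels name a tdT reporter of Il19, a cytokine gene. The sources used here do not give the age of the mice, how the cells were separated, or whether a replicate number stands for a shared mouse or culture. P-values therefore measure the spread between these libraries.

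Replication-dependent histone genes supply the core and linker histones that package newly made DNA, and their mRNAs accumulate in S phase. These mRNAs usually end in a short conserved stem-loop, bound by the stem-loop binding protein SLBP, and carry no poly(A) tail. Variant histones are made throughout the cell cycle from ordinary polyadenylated mRNAs and replace or supplement the standard histones at particular places in chromatin. Some cluster genes also give a polyadenylated mRNA in cells that have stopped dividing. The libraries were made from poly(A)-selected RNA, a step that retains few mRNAs without a tail. Poor capture and low transcription of a cluster gene cannot be told apart in such libraries.

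The stem-loop was looked for in the annotated transcripts, since it marks the genes whose mRNA can end without a tail. The pattern searched, on the sense strand of the transcripts, was a 16-base stretch of GG, any 2 bases, CTT, any 3 bases, AG, any 2 bases and CC, whose arms pair over 6 bases around a loop of 4 bases. Of 55 replication-dependent genes with transcripts in GENCODE M21, 39 held it, against 2 of 12 variant genes, H2afx and Hist1h1t. Of 21901 protein-coding genes in all, 72 held it (0.329%). Several cluster genes without a match have a short annotated transcript. Examples are Hist1h2ak, with 393 bases against a deposited length of 536, and Hist1h4k, with 312 against 409. A missing match in such a transcript does not show that the gene lacks a stem-loop. Shown here, from the mouse GRCm38 transcripts of GENCODE M21 and written as DNA 5′ to 3′, are the stem-loops of 5 cluster genes that the results turn on and of H2afx. Capitals mark the stem-loop and small letters the 5 bases on either side.
Hist3h2a: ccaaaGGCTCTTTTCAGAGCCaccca
Hist1h1c: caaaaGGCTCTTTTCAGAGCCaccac
Hist1h4i: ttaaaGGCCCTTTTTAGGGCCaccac
Hist1h2bg: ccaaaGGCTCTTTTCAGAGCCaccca
Hist1h4d: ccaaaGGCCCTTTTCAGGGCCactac
H2afx: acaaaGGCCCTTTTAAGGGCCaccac

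These stem-loops lie in the 3′ untranslated region, at chr11:58955172-58955187 on the plus strand for Hist3h2a, chr13:23739512-23739527 on the plus strand for Hist1h1c and chr13:22040966-22040981 on the minus strand for Hist1h4i. Those of Hist1h2bg and Hist1h4d are at chr13:23571843-23571858 and chr13:23581950-23581965 on the plus strand, and that of H2afx is at chr9:44335240-44335255 on the plus strand. The 39 cluster genes held 8 distinct stem-loops, and 22 genes had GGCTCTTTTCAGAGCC, the form seen in Hist3h2a, Hist1h1c and Hist1h2bg. Among these 39 cluster genes the arms differed between the H4 genes and the others. In the 10 H4 genes, bases 3 to 5 of the stem-loop, counted from its 5′ end, were CCC in 8 genes and TCC in 2. All 29 other cluster genes had CTC there. The variant gene H2afx, which is not among the 39, had CCC although it encodes an H2A protein. Base 5 is fixed by the pattern. The annotated transcripts of Hist1h2bc and Hist2h2be held no match, which says only that these letters are not in those transcripts.

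Among cluster genes with a stem-loop, those with most reads had an annotated transcript that runs on well past it. Hist1h2bc and Hist2h2be, with 12240 and 1966 counts, hold no match to the pattern and are outside this comparison. A polyadenylated form was counted as annotated where a transcript continued for at least 100 bases past the stem-loop and had AATAAA or ATTAAA in its last 50 bases. Of the 39 genes, 11 had one and 28 did not. The 11 held 9840 counts over the 8 libraries, with a median level of 0.155 RPKM (counts per kilobase of gene, scaled to library size) and a maximum of 27.3 RPKM. The 28 others held 969 counts, with a median of 0.0950 and a maximum of 0.728 RPKM. The annotated transcript of Hist3h2a runs 1643 bases past its stem-loop, that of Hist1h1c 840 bases and that of Hist1h4i 330 bases. These 3 genes account for most of the counts of the first set, and the medians of the 2 sets differ far less than their maxima. Long transcripts were annotated for scarce genes as well. That of Hist1h1d runs 4884 bases past its stem-loop, at 0.102 RPKM, and that of Hist4h4 2445 bases, at 0.0266 RPKM.

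**Figure D1:**
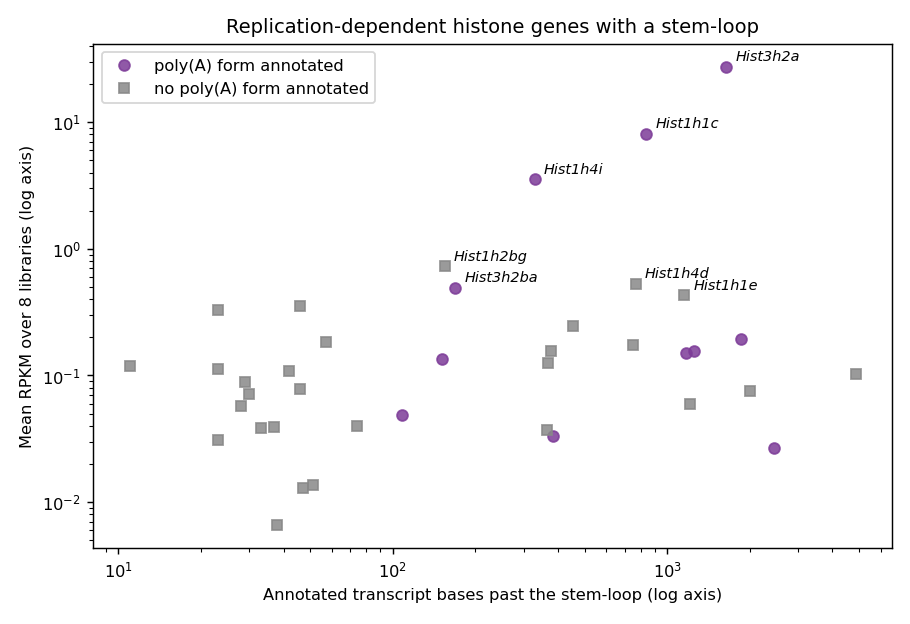
Mean level over the 8 libraries (RPKM, log axis) of the 39 replication-dependent genes with a stem-loop, against the number of annotated transcript bases past the stem-loop (log axis). Circles are genes with an annotated polyadenylated form and squares the others. Hist3h2a, Hist1h1c and Hist1h4i stand above all other genes in the plot.

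The deposited gene models limit what these levels can show. For 41 of the 57 replication-dependent genes the length in the deposited table equals the span of the gene in the RefSeq annotation of GRCm38.p6. The RefSeq models of 36 of the 39 genes with a stem-loop end 4 to 8 bases past it. If reads were counted within such models, those from a longer, polyadenylated end would not be included. The sources used here do not name the annotation that the authors counted with. Many cluster genes also have nearly identical coding sequences, so reads may have been divided between them or dropped, and the level of a single cluster gene is uncertain for that reason. Hist2h3c1 and Hist2h3c2 had identical counts in all 8 libraries, 88 in total. They were counted once in sums, except that the 9840 and the 969 counts given above each include these 88.

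Variant genes supplied almost all histone reads. They had 285826 counts over the 8 libraries, against 25095 for the replication-dependent genes, which made up 8.07% of histone counts. Summed variant level was 705, 558, 655 and 685 CPM (counts scaled to a common library size, not divided by length) in tdT-positive replicates 1 to 4, against 703, 608, 688 and 579 CPM in tdT-negative replicates 1 to 4. The replication-dependent genes summed to 54.8, 50.9, 70.4 and 53.4 CPM in the tdT-positive libraries and 49.6, 53.3, 67.5 and 57.2 CPM in the tdT-negative libraries. Both sums overlapped between the groups, and replicate 3 had the highest replication-dependent sum in each group. In these bulk samples fewer cells that express a gene and less RNA per cell cannot be told apart.

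Among variants, H3f3b and H3f3a encode the same protein, H3.3, which is deposited at active genes outside S phase. H3f3b had the highest level of all histone genes, at 214 RPKM on average, and 65.9% of variant counts. It measured 492, 365, 415 and 471 CPM in tdT-positive and 477, 389, 433 and 369 CPM in tdT-negative replicates 1 to 4. H3f3a averaged 43.1 RPKM, with 37.9 to 55.5 CPM in tdT-positive and 37.7 to 55.1 CPM in tdT-negative libraries. The ranges of both genes nearly coincided between the groups.

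The H2A variants covered a wide range. H2afy, which encodes the large variant macroH2A1 associated with silent chromatin, averaged 51.1 RPKM, and its relative H2afy2 0.294 RPKM. H2afy measured 94.8, 94.0, 115 and 104 CPM in tdT-positive and 107, 106, 113 and 105 CPM in tdT-negative libraries. H2afj, a variant gene close to standard H2A, averaged 15.2 RPKM, with 26.8, 24.3, 26.4 and 28.1 CPM in tdT-positive and 26.8, 29.2, 37.9 and 22.9 CPM in tdT-negative libraries. Its range in the tdT-negative libraries enclosed that in the tdT-positive ones. H2afz and H2afv, which encode forms of H2A.Z, a variant found at promoters, averaged 5.71 and 2.18 RPKM, and H2afx, whose product is phosphorylated around DNA breaks, 5.52 RPKM. H2afz and H2afx were next to each other in this order and their values over the libraries overlapped.

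Linker variants were led by H1f0, the linker histone known from differentiated and resting cells, at 10 RPKM. It measured 19.3, 19.7, 32.7 and 20.8 CPM in tdT-positive and 19.6, 18.9, 29.5 and 22.5 CPM in tdT-negative replicates 1 to 4, so replicate 3 was highest in both groups. H1fx averaged 0.914 RPKM. The other 3 variant genes were below the expression filter. They were H1foo, the oocyte linker histone, the pseudogene H2afy3, and Hist1h1t, which had 1 count in all.

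Replication-dependent reads came from few genes. The 5 genes with most counts, Hist1h2bc, Hist3h2a, Hist1h1c, Hist2h2be and Hist1h4i, held 93.9% of them, and 4 genes had at least 1000 counts. Hist1h2bc, an H2B gene that is known to give a polyadenylated mRNA, averaged 36.0 RPKM and was at 25.4, 25.2, 35.3 and 24.8 CPM in tdT-positive and 21, 26.2, 36.2 and 28.9 CPM in tdT-negative replicates 1 to 4. Hist3h2a, an H2A gene outside the large clusters, averaged 27.3 RPKM, with 16.9, 13, 12.1 and 15.9 CPM in tdT-positive and 15.4, 13.8, 13 and 11 CPM in tdT-negative libraries. Hist1h2bc was highest in replicate 3 of both groups, and Hist3h2a was highest in replicate 1 of both.

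Hist1h1c, a linker gene known to be transcribed outside S phase as well, averaged 8.11 RPKM. It had 4.10, 4.66, 8.07 and 4.38 CPM in tdT-positive and 5.14, 4.63, 7.28 and 8.80 CPM in tdT-negative libraries. The H4 gene Hist1h4i averaged 3.54 RPKM, with 1.21, 1.26, 1.3 and 1.41 CPM in tdT-positive and 1.08, 1.73, 2.27 and 1.17 CPM in tdT-negative libraries. Its tdT-positive values lay close together, within the wider range of the tdT-negative ones. The H2B gene Hist2h2be, whose mRNA is known to be polyadenylated in differentiated cells, averaged 1.69 RPKM. It had 4.58, 4.44, 6.17 and 3.27 CPM in tdT-positive and 4.19, 4.68, 5.24 and 3.51 CPM in tdT-negative libraries, highest in replicate 3 and lowest in replicate 4 of both groups. The H2B gene Hist1h2bg averaged 0.728 RPKM. Below them came Hist1h4d, which did not pass the filter, at 0.531 RPKM and Hist3h2ba, an H2B gene, at 0.492 RPKM. The group values of each of these genes overlapped.

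**Figure D2:**
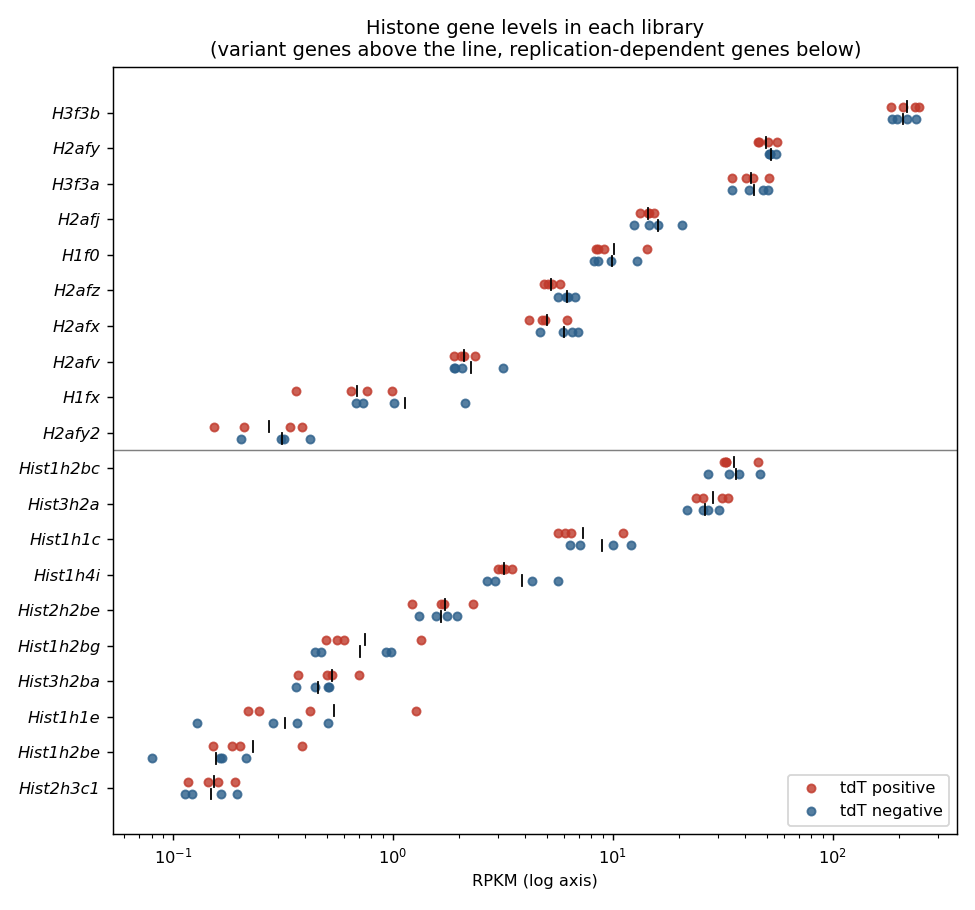
Level of each tested histone gene in every library (RPKM, log axis), with variant genes above the grey line and replication-dependent genes below it. Red points are tdT-positive and blue points tdT-negative libraries, and short black lines are group means over 4 libraries. Hist2h3c2, whose counts equal those of Hist2h3c1, is not drawn. H3f3b lies at the top, and the groups overlap for every gene.

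The expression filter kept 21 histone genes, 11 replication-dependent and 10 variant. Of the replication-dependent genes it kept 5 of 16 for H2B, with 14861 counts, and 1 of 13 for H2A, with 6341 counts. It kept 2 of 5 linker H1 genes, with 2785 counts, 1 of 11 H4 genes, with 910 counts, and 2 of 12 H3 genes, the identical pair Hist2h3c1 and Hist2h3c2. The standard H3 genes had 198 counts in all with that pair counted once, against 208803 counts for the variant H3 genes H3f3a and H3f3b. The 49 others had too few counts for a test. Among the 46 replication-dependent genes below the filter, totals over the 8 libraries ran from 1 to 79 counts, with 842 counts together, and 18 of these genes had fewer than 10 counts. At the depth of these libraries, 3 counts correspond to 0.0490 to 0.0696 CPM, so differences in such genes were not detectable one by one.

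No tested histone gene passed an adjusted p under 0.05 between the tdT-positive and tdT-negative libraries. In the edgeR quasi-likelihood fit with the group as the only term, 0 of 21 passed, beside 0.0238% of all 12610 genes tested. At an unadjusted p under 0.05, again 0 of 21 were found by edgeR, beside 16.3% of all genes, 0 by limma voom and 1 by the DESeq2 Wald test. For none of the 21 genes did the groups lie apart, whereas the values of the groups did not overlap for 11.4% of all genes. Libraries of the same replicate number varied together, so the number was also entered as a block. In that fit again 0 of 21 histone genes passed, beside 15.8% of all genes, of which the higher in tdT-positive cells made up 8.03% and the lower 7.81% of all genes tested. At an unadjusted p under 0.05, 3 histone genes were found, beside 32.7% of all genes.

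Those 3 genes were variants, and none passes the adjusted threshold. H2afz had 6.14, 5.64, 5.40 and 5.18 CPM in tdT-positive and 6.66, 7.20, 6.57 and 6.03 CPM in tdT-negative replicates 1 to 4. It was lower in tdT-positive libraries in 4 of 4 numbers, although the groups overlapped (log2 fold change -0.24, SE 0.09, edgeR with the block, adjusted p = 0.121). H2afx had 5.66, 6.47, 8.42 and 6.72 CPM in tdT-positive and 6.35, 8.06, 8.90 and 9.44 CPM in tdT-negative libraries, also lower in 4 of 4 numbers (-0.26, SE 0.10, adjusted p = 0.116). Of the 21 tested histone genes these 2 were lower in every number, a pattern that 19.6% of all genes tested had, and none of the 21 was higher in every number.

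The third, H1fx, a linker variant, had 0.384, 0.688, 0.812 and 1.05 CPM in tdT-positive and 0.726, 1.07, 0.774 and 2.26 CPM in tdT-negative libraries. Its log2 fold change was -0.67 (SE 0.24, edgeR with the block, adjusted p = 0.107). The value of 2.26 CPM in tdT-negative replicate 4 stood above the others, and without the block the log2 fold change was -0.72 with that library and -0.23 without it.

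For the abundant genes the intervals of the difference were narrow. In the fit with the block, the 95% interval of the log2 fold change was -0.14 to 0.27 for H3f3b, -0.23 to 0.06 for H2afy, -0.15 to 0.18 for H1f0 and -0.22 to 0.20 for Hist1h2bc. Hist3h2a had an interval of -0.15 to 0.39. Intervals widened among the rarer cluster genes. Hist1h1e, a linker gene, had a log2 fold change of 0.58 with an interval of -0.23 to 1.40, and the H2B gene Hist1h2be 0.55 with an interval of -0.12 to 1.22, so that a difference of more than 2-fold in Hist1h1e is within its interval. Both genes were highest in tdT-positive replicate 3, at 0.997 and 0.974 CPM. The median log2 fold change in this fit was 0.05 over the 11 replication-dependent genes, -0.10 over the 10 variants and 0.01 over all genes tested.

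**Figure D3:**
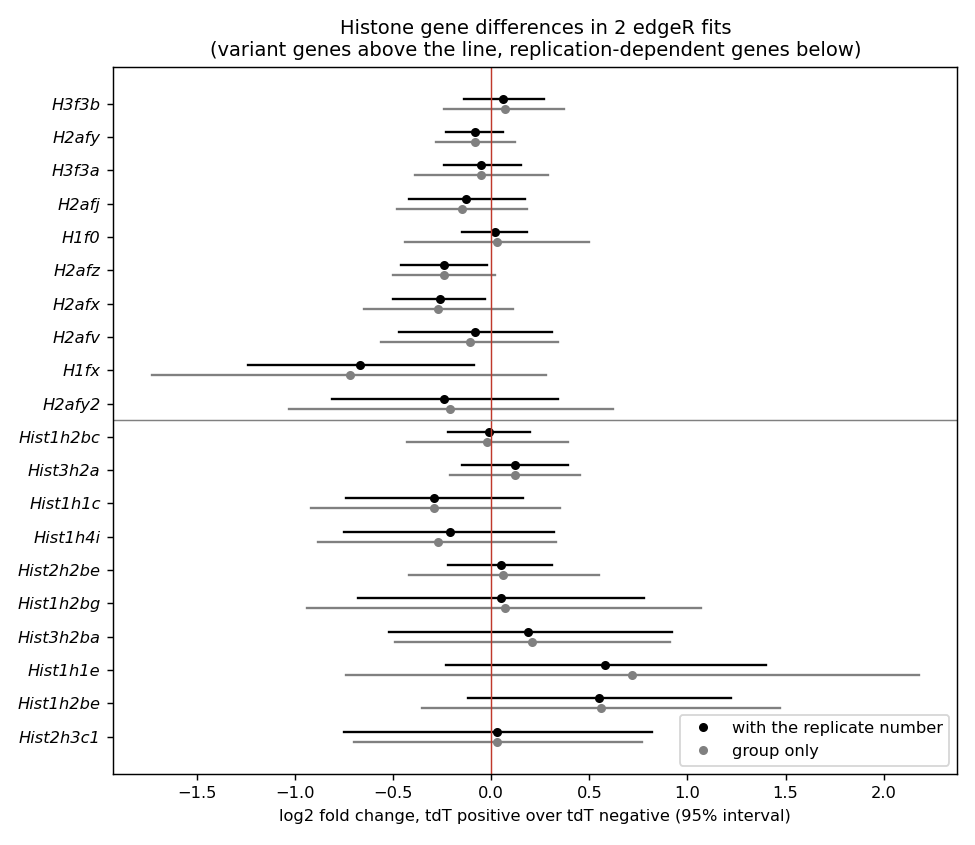
Log2 fold change, tdT positive over tdT negative, with its 95% interval, for each tested histone gene in 2 edgeR fits. Black is the fit blocked by replicate number and grey the fit with the group only, and Hist2h3c2 is not drawn. With the block, the intervals of H2afz, H2afx and H1fx lie below 0 before adjustment for the number of genes tested.

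Some histone genes differed between replicate numbers, though a smaller share of them than of all genes. The number term of the blocked edgeR fit, a test chosen after seeing the data, passed for 4 of 21 histone genes (F test, adjusted p under 0.05), beside 27.7% of all genes tested. They were H1f0 (adjusted p = 0.00762), Hist1h2bc (adjusted p = 0.0326), Hist1h1e (adjusted p = 0.0389) and H1fx (adjusted p = 0.0482). H1f0 averaged 19.5, 19.3, 31.1 and 21.7 CPM in numbers 1 to 4, and Hist1h2bc 23.2, 25.7, 35.8 and 26.9 CPM. Number 3 was highest for these 2 genes and Hist1h1e, and number 4 for H1fx. Of the 21 histone genes, 12 were highest in number 3, against 31.4% of all genes.

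RNAs that normally carry no poly(A) tail were high in 1 library. tdT-positive replicate 3 held 12.3% of its counts in Rn45s, the precursor of ribosomal RNA, against 0.302% to 0.505% in the other tdT-positive libraries and 0.449% to 0.734% in the tdT-negative libraries. Other such RNAs stood out in the same library. Rpph1, the RNA of RNase P, had 0.882, 1.02, 75.9 and 1.32 CPM in tdT-positive and 0.410, 0.655, 0.972 and 1.54 CPM in tdT-negative replicates 1 to 4, and Rmrp, the RNA of RNase MRP, had 0.422, 0.361, 40.4 and 0.719 CPM and 0.130, 0.353, 0.702 and 0.456 CPM in the same order.

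The scarce cluster genes, taken as a sum, were also highest in that library. Summed over the 46 replication-dependent genes below the filter, the level was 1.3, 1.17, 4.41 and 2.04 CPM in tdT-positive and 1.53, 1.48, 1.69 and 2.15 CPM in tdT-negative replicates 1 to 4. The 95% Poisson interval of the value in tdT-positive replicate 3, from 190 counts, was 3.80 to 5.08 CPM, above the intervals of the 7 other libraries. Of the 46 genes, 18 had their highest level in that library alone, 9 in tdT-negative replicate 4, and between 1 and 5 in each of the other libraries. The filter asks for a minimum count in several libraries, so a gene high in a single library, whichever it is, tends to fall into this set. Hist1h4d, an H4 gene whose stem-loop is shown above, was at 0.742 CPM there, against 0.0384 to 0.180 CPM in the other tdT-positive and 0.0676 to 0.242 CPM in the tdT-negative libraries. Hist2h2bb, an H2B gene, had 0.394 CPM there and at most 0.0817 CPM in any other library. Intervals cover counting error only, and the part that untailed RNA in this library had in these values was not tested.

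The abundant cluster genes, taken as a sum, were as high in tdT-negative replicate 3 as in tdT-positive replicate 3. The tested replication-dependent genes summed to 53.5, 49.7, 66.0 and 51.4 CPM in tdT-positive and 48.1, 51.8, 65.8 and 55.1 CPM in tdT-negative libraries. Rn45s took 12.3% of counts in tdT-positive replicate 3 and 0.734% in tdT-negative replicate 3, which was still the highest share among the 7 other libraries. The part of untailed RNA in these sums was not tested. H1f0 and Hist1h2bc were likewise high in both libraries of number 3. Hist3h2a was not, and averaged 16.1, 13.4, 12.6 and 13.5 CPM in numbers 1 to 4. Without tdT-positive replicate 3, again 0 histone genes passed in the fit with the group only, of 21 tested.

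**Figure D4:**
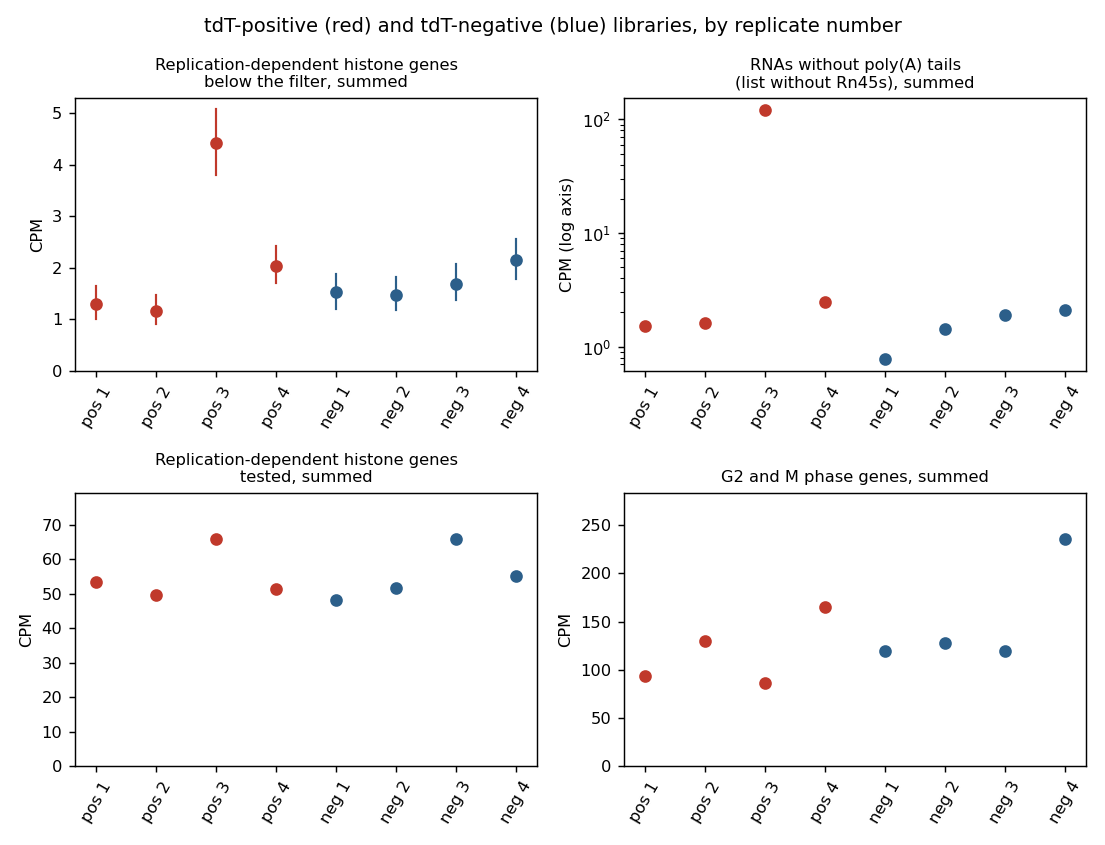
Summed levels in each library (CPM; log axis at top right only), with tdT-positive libraries in red on the left and tdT-negative libraries in blue on the right. Bars at top left are 95% Poisson intervals. tdT-positive replicate 3 stands apart at 4.41 CPM of replication-dependent genes below the filter and 120 CPM of RNAs without tails (Rn45s left out), replicate 3 is highest in both groups for tested replication-dependent genes, and tdT-negative replicate 4 is highest for G2 and M phase genes.

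Proliferation genes that passed were all lower in tdT-positive macrophages, while no histone gene passed. Of 33 S phase genes, 0 rose, 4 fell and 29 did not pass in the edgeR fit with the block, with a median log2 fold change of -0.32. The share called, 12.1%, lay near that of all genes, 15.8% in either direction and 7.81% lower. The 4 were Rrm2 (-1.99) and Rrm1 (-0.54), subunits of ribonucleotide reductase, Dut (-1.50), which keeps uracil out of DNA, and Mcm6 (-0.49), a part of the replicative helicase. Of 30 G2 and M phase genes, 0 rose, 8 fell and 22 did not pass, with a median of -0.70. That is 26.7% lower, beside the same 7.81% of all genes. Top2a, the topoisomerase of dividing cells, had 3.89, 6.76, 2.95 and 9.64 CPM in tdT-positive and 7.09, 9.57, 6.81 and 20.9 CPM in tdT-negative replicates 1 to 4, and was lower in each number (-0.92, adjusted p = 0.00976). Nusap1 (-1.10), Cdc20 (-1.11) and Kif11 (-1.07), which act in mitosis, also fell. No gene of these lists passed in the edgeR fit with the group only. With the block, 2, 1, 0 and 5 S phase genes and 1, 1, 0 and 2 G2 and M phase genes passed without numbers 1, 2, 3 and 4.

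Other proliferation markers did not pass. Mki67, a marker of cycling cells, had 11, 21, 19.2 and 33.7 CPM in tdT-positive and 13.9, 18.0, 22.1 and 38.8 CPM in tdT-negative libraries. Pcna, the sliding clamp of DNA polymerase, had 64.7, 54.7, 49.4 and 61.8 CPM and 65.2, 58.4, 56.4 and 51.1 CPM in the same order. Cenpa, the histone H3 variant of centromeres, whose symbol keeps it out of the histone set, had 1.21, 1.36, 1.23 and 1.21 CPM in tdT-positive and 1.79, 1.85, 1.75 and 3.53 CPM in tdT-negative libraries, so the groups did not overlap, as for 11.4% of all genes (-0.77, edgeR with the block, adjusted p = 0.0603). Summed G2 and M phase level was 94.0, 130, 86.8 and 165 CPM in tdT-positive and 119, 128, 120 and 236 CPM in tdT-negative libraries. The order of the libraries in this sum was not that of the tested replication-dependent sum. In tdT-negative replicate 4, highest in G2 and M phase genes, the tested genes summed to 55.1 CPM. In tdT-positive replicate 3, lowest in G2 and M phase genes, they summed to 66.0 CPM. The sum below the filter was highest in tdT-positive replicate 3 (4.41 CPM), then tdT-negative replicate 4 (2.15 CPM) and tdT-positive replicate 4 (2.04 CPM). The replicate 4 libraries also had the highest G2 and M phase sums, 236 and 165 CPM. Whether the histone sums follow proliferation was not tested.

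No gene of histone mRNA processing passed, and genes that handle histone proteins went both ways. Of 19 histone mRNA processing genes, 0 rose and 0 fell in the fit with the block, with a median log2 fold change of 0.01, and 5 had an unadjusted p under 0.05, beside 32.7% of all genes. Slbp had 20.0, 18.4, 22.2 and 18.8 CPM in tdT-positive and 22.1, 19.1, 22.1 and 16.2 CPM in tdT-negative libraries (0.01, adjusted p = 0.954). Of 26 histone chaperones and exchange factors, 4 rose, 2 fell and 20 did not pass, with a median of -0.03. The share called was 23.1%, beside 15.8% of all genes, of which 8.03% were higher and 7.81% lower. Ubn2 (0.55) and Cabin1 (0.27), partners of the HIRA complex that deposits H3.3, rose, as did Srcap (0.38) and Ep400 (0.28), ATPases that exchange H2A.Z into chromatin. Nap1l1 (-0.31), a chaperone of H2A and H2B, and Rbbp7 (-0.21), which binds H3 and H4, fell. H3f3a, H3f3b, H2afz and H2afv, the histones of those exchange factors, did not pass. None of these chaperones passed in the fit with the group only, and over the cell-cycle, processing and chaperone lists together 5, 2, 1 and 13 genes passed with the block without numbers 1, 2, 3 and 4, against 18 with all numbers.

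**Figure D5:**
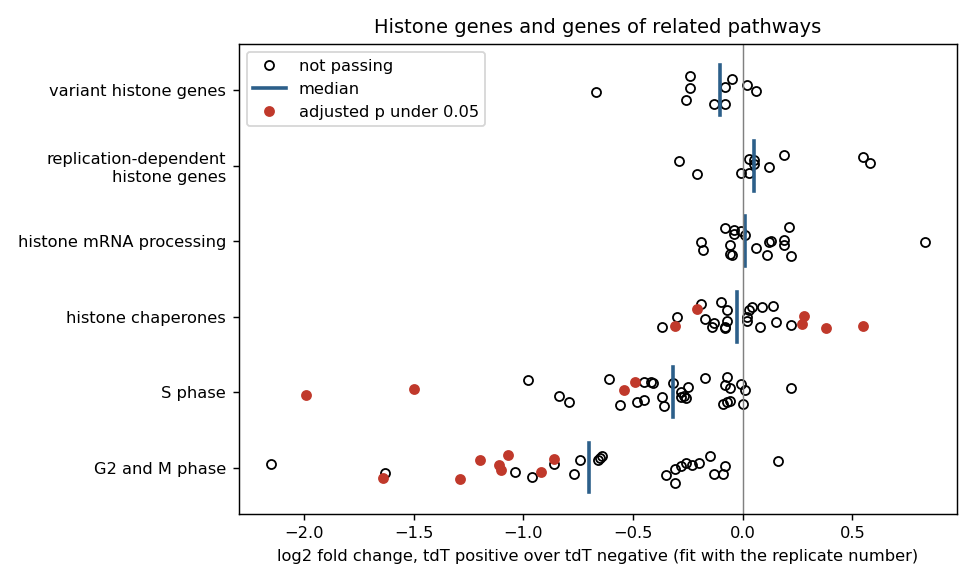
Log2 fold change, tdT positive over tdT negative, of each tested gene in 6 groups, from the edgeR fit blocked by replicate number. Filled red points passed an adjusted p under 0.05, open points did not, and blue lines are medians. No histone gene passed, and the median of the G2 and M phase genes was -0.70.

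Markers of several other cell types were also lower in the tdT-positive libraries, and their part in the differences of proliferation genes was not tested. Libraries held 49850537 to 58516454 counts, and the macrophage markers, 10 of 10 tested, summed to 14400 to 18800 CPM in tdT-positive and 12100 to 21800 CPM in tdT-negative libraries. Il19 ran from 145 to 234 CPM in tdT-positive and from 9.17 to 17.0 CPM in tdT-negative libraries. Markers that fell were counted in the edgeR fit with the block at an adjusted p under 0.05. In that fit 7.81% of all genes tested fell. In the fit with the group only, 0 markers of each list fell. Of 13 stromal markers tested 12 fell with the block. The stromal sum was 86.3 to 222 CPM in tdT-positive and 365 to 3180 CPM in tdT-negative libraries, with 3180 CPM in tdT-negative replicate 4. Osteoclast markers, of which 4 of 8 fell, reached 1530 CPM in that library, against 100 to 143 CPM in tdT-positive libraries and 111 to 195 CPM in tdT-negative replicates 1 to 3. Neutrophil precursor markers, of which 5 of 7 fell, summed to 3.53 to 8.59 CPM in tdT-positive and to 190, 387, 277 and 24.7 CPM in tdT-negative replicates 1 to 4. They were thus lowest among the tdT-negative libraries in replicate 4, where the stromal, osteoclast and G2 and M phase sums were highest. Prtn3, Ms4a3, Ctsg and Elane were at 0 in all tdT-positive libraries, with 150, 71, 13 and 5 counts over the 8 libraries. Only Prtn3 among them passed the filter, and Elane was also at 0 in tdT-negative replicate 3. Of the stem and progenitor markers 1 of 7 fell, of the lymphoid markers 1 of 2, and of the erythroid markers 0 of 2. The erythroid sum was 72.5 to 97.3 CPM in tdT-positive and 103 to 343 CPM in tdT-negative libraries. Most of it was Tfrc, at 69.7 to 94.3 CPM in tdT-positive and 99.7 to 324 CPM in tdT-negative libraries. The erythroid genes Klf1, Epor, Hbb-bs and Hba-a1 had 17, 12, 2 and 2 counts over the 8 libraries, too few for a test.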

How the data were processed

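Polyadenylated RNA of 8 libraries was sequenced, from 220 ng of total RNA each with a stranded mRNA kit per the labels' protocols. The authors deposited whole-number counts per gene with Entrez identifiers, symbols and lengths. STAR and the mm10 genome (GRCm38) are named per the submitters' processing notes. The sources used here do not give the counting tool, annotation or strand setting. Genes were kept by the default edgeR 4.0.16 filter (minimum count 10, minimum total 15; 12610 genes), scaled with TMM factors (0.865 to 1.15) and compared by its quasi-likelihood test (R 4.3.3), with Benjamini-Hochberg adjustment over all genes tested and a threshold of 0.05. CPM uses the TMM-scaled totals, and RPKM divides it by the deposited length.

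Titles gave the groups and replicate numbers. Deviations from group means correlated between same-numbered libraries by 0.63, 0.28, 0.62 and 0.56 for numbers 1 to 4. Each tdT-positive library matched the tdT-negative library of its own number best, so the block is printed beside the fit with the group only. The best match of each tdT-negative library was not examined. Chi-square per degree of freedom between libraries of a group was 54 to 759, so none repeated another.

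Every tested variant gene, the 8 replication-dependent genes of highest mean RPKM, and up to 4 passing members of each other list were to be named. Hist1h1e, Hist1h2be, Hist2h2bb, H1foo, Ep400 and Rbbp7 were named after their values were seen. Members and gene lists were chosen with earlier results of these data known. DESeq2 1.42.0 and limma 3.58.1 were used as alternatives. All 70 genes matched the RefSeq gene table and 67 had GENCODE transcripts. The fits were tested on simulated data.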

Additional observations from a re-analysis of the deposited data

Results flagged for a closer look

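Within groups of 4 libraries, single values that lay far from the other 3 were listed. Chance gives about 1 such value in 20 independent groups, and 17 of 96 groups had one. The groups share the same 8 libraries and some genes were named because they passed, so these figures cannot be compared directly. Histone genes H1f0, Hist1h2bc, Hist1h1c, Hist1h2bg and H2afv were high in a library of number 3. In tdT-positive replicate 3, H1f0 was at 32.7 CPM, against 19.3 to 20.8 CPM in the other tdT-positive libraries, Hist1h2bc at 35.3 CPM (others 24.8 to 25.4), Hist1h1c at 8.07 CPM (others 4.10 to 4.66) and Hist1h2bg at 0.626 CPM (others 0.230 to 0.278). H2afv was at 5.19 CPM in tdT-negative replicate 3, against 3.11 to 3.38 CPM in tdT-negative replicates 1, 2 and 4. H1foo, the oocyte linker histone, was at 1.01 CPM in tdT-negative replicate 4, from 60 of its 80 counts, and at 0.0180 to 0.0931 CPM in tdT-negative replicates 1 to 3.

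RNAs without poly(A) tails stood apart in tdT-positive replicate 3: Rn45s at 142000 CPM, Rpph1 at 75.9 CPM, Rmrp at 40.4 CPM and the summed list without Rn45s at 120 CPM. Among cell-cycle and histone-handling genes, Rrm1 at 33.3 CPM, Ubn2 at 43.5 CPM, Cenpa at 3.53 CPM and summed G2 and M phase level at 236 CPM were high in tdT-negative replicate 4. Mcm6 at 43.6 CPM and Srcap at 72.2 CPM were low in tdT-negative replicate 3, and Cenpa at 1.36 CPM was high in tdT-positive replicate 2.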

How the results depend on the processing

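The count of histone genes passing was 0 in each of the 26 other settings run and at thresholds of 0.01 and 0.1. It was 0 of 70 without a filter. The median log2 fold change of replication-dependent genes, 0.06, ran from -0.10 to 0.15 when libraries were left out, and that of variants, -0.13, from -0.19 to -0.03. Cell-cycle, processing and chaperone genes passing were 0 in the fit with the group only and 1 at a threshold of 0.1. They were 18 with the replicate block, 4 by the DESeq2 Wald test, and with the block 27 by DESeq2, 22 by limma voom, 21 without a filter, 13 by library totals and 18 without Rn45s and Lars2. With the block they were 5, 2, 1 and 13 without numbers 1, 2, 3 and 4, and without the block 0 with each library left out. The settings that joined the block with DESeq2, limma voom, no filter, library totals or the removal of Rn45s and Lars2 were chosen after seeing the data. The pairing by replicate number changed no histone call.

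Signs turned for genes that never passed. Their log2 fold changes were near 0, except for Rn45s, at 2.65 in the fit with the group only. With library totals H3f3b was 0.00 (-0.02 with the block), H1f0 -0.07 (-0.06), Hist2h2be -0.02 (-0.03), Hist1h2bg -0.06 (-0.04) and Slbp -0.07 (-0.07). Slbp was also 0.00 with DESeq2 size factors and the Wald test, -0.03 with upper-quartile factors and -0.01 with the 1 CPM filter, H1f0 was -0.01 with upper-quartile factors, and Pcna was 0.01 without a filter, with or without the block. With libraries left out, log2 fold changes ran from -0.02 to 0.15 for H3f3b, -0.15 to 0.04 for H3f3a, -0.25 to 0.00 for H2afj, -0.18 to 0.18 for H1f0, -0.20 to 0.10 for H2afv (0.09 with the block without number 3), -0.15 to 0.13 for Hist1h2bc, 0.00 to 0.20 for Hist3h2a, -0.10 to 0.20 for Hist2h2be, -0.35 to 0.36 for Hist1h2bg (-0.16 with the block without number 3, 0.26 without tdT-negative replicate 4), -0.09 to 0.06 for Slbp (-0.05 with the block without number 4), -0.45 to 0.23 for Mki67, -0.08 to 0.07 for Pcna (0.02 and 0.05 with the block without numbers 2 and 3) and -0.70 to 3.04 for Rn45s (-0.60 with the block without number 3). The cause was not tested. Depth limits the 49 histone genes below the filter.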
